A study of Mus musculus with 42 samples.

Results

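The comparison described here asks what loss of Tfeb changes in the transcriptome of a kidney that already lacks Tsc2. It sets kidneys with both genes deleted (double knockout, DKO, n = 3) against kidneys with Tsc2 alone deleted (Tsc2 KO, n = 3), 6 of the 42 libraries of the series. The members are libraries, taken by genotype and Cre line, so no measured value chose them. All mice of this cohort were on a C57BL/6 background and were sampled at postnatal day 30 (P30) after tamoxifen given to the lactating mothers in the first days of life. Tsc2 KO mice were CaggCreERT2+; Tsc2 fl/fl and DKO mice were CaggCreERT2+; Tsc2 fl/fl; Tfeb fl/fl. The same cohort held 3 kidneys labelled wild type (control) and 3 CaggCreERT2+ kidneys with Tfeb alone deleted (Tfeb KO). By the study's description the controls also carried CaggCreERT2+ and received tamoxifen, with Tsc2 intact (Tsc2+/+). CaggCreERT2 is a ubiquitous tamoxifen-inducible recombinase, so deletion was aimed at the whole body and not only at kidney cells. These libraries do not measure its extent outside the kidney. Expression is given as FPKM (fragments per kilobase of gene, scaled to the depth of each library), and fold changes, standard errors and adjusted p-values come from edgeR on the read counts.

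TSC2 is the GTPase-activating subunit of the tuberous sclerosis complex, which holds the small GTPase Rheb in its inactive state and so restrains mTORC1, the kinase complex that couples nutrients and growth factors to protein, lipid and nucleotide synthesis. TFEB belongs to the MiT/TFE family of basic helix-loop-helix leucine zipper transcription factors, which bind the letters CACGTG and related E-boxes and are known for switching on genes of lysosomes and autophagy. TFEB is itself held in the cytoplasm when mTORC1 phosphorylates it, a step that needs the Rag GTPases and folliculin on the lysosome. In kidney, loss of the tuberous sclerosis complex is known for cysts and tumours.

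Total counts per library were 16628767 to 19154801 in DKO and 16186631 to 19625547 in Tsc2 KO, so the groups were of like depth. Markers of kidney were present in every library, with uromodulin (Umod, thick ascending limb) at 642, 703 and 696 FPKM in Tsc2 KO and 885, 834 and 775 in DKO. Sex is not in the labels. Xist, the RNA that coats the inactive X chromosome, stood above 6 FPKM with the Y-linked gene Ddx3y at 0 in Tsc2 KO 1, Tsc2 KO 3 and DKO 3, and the opposite held in Tsc2 KO 2, DKO 1 and DKO 2. Both groups therefore held female-like and male-like libraries, whereas the controls were all male-like and the Tfeb KO kidneys all female-like. Tsc2 KO 1 stood apart in blood content, since its 8 erythroid markers summed to 54.1 FPKM against 585 to 691 in the other Tsc2 KO kidneys and 622 to 685 in DKO. The count and FPKM tables give different names to 4 of the 12 CaggCreERT2 libraries, and the names of the FPKM table are used throughout. The labels number the replicates without naming animals, but the sex-linked genes show that neither DKO nor Tsc2 KO came from a single animal, and the p-values measure the spread between these libraries.

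Both targeted genes were read first. Tsc2 (ENSMUSG00000002496, mm10 chromosome 17, 24595816 to 24632630) measured 10.6, 10.6 and 9.81 FPKM in control, 4.06, 4.14 and 4.55 in Tsc2 KO and 5.26, 4.82 and 5.64 in DKO. It was low in both deleted groups, where some transcript remained, and DKO and Tsc2 KO did not pass the test against each other (log2 fold change 0.28 ± 0.09 (SE), adjusted p = 0.072, or 0.043 in DESeq2), although all 3 DKO values lay above the 3 Tsc2 KO values. Tfeb (ENSMUSG00000023990, mm10 chromosome 17, 47737030 to 47792419) measured 5.30, 4.57 and 8.02 FPKM in control, 7.32, 6.98 and 8.33 in Tsc2 KO and 2.80, 3.48 and 1.99 in DKO. That is a 2.78-fold fall from Tsc2 KO to DKO (log2 fold change -1.48 ± 0.23 (SE), adjusted p = 0.0033). Counts cover whole genes, so reads from exons outside a deleted part are included. In whole tissue, fewer cells that express a gene and less RNA per cell cannot be told apart. The sister factors did not pass the test. Tfe3 measured 5.38, 5.56 and 4.91 FPKM in Tsc2 KO and 4.86, 4.55 and 4.82 in DKO (log2 fold change -0.18, adjusted p = 0.29). Tfec measured 4.52, 5.38 and 4.33 in Tsc2 KO and 5.25, 5.33 and 6.05 in DKO (log2 fold change 0.20, adjusted p = 0.46), and its sign turned under the library names of the count table.

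**Figure D1:**
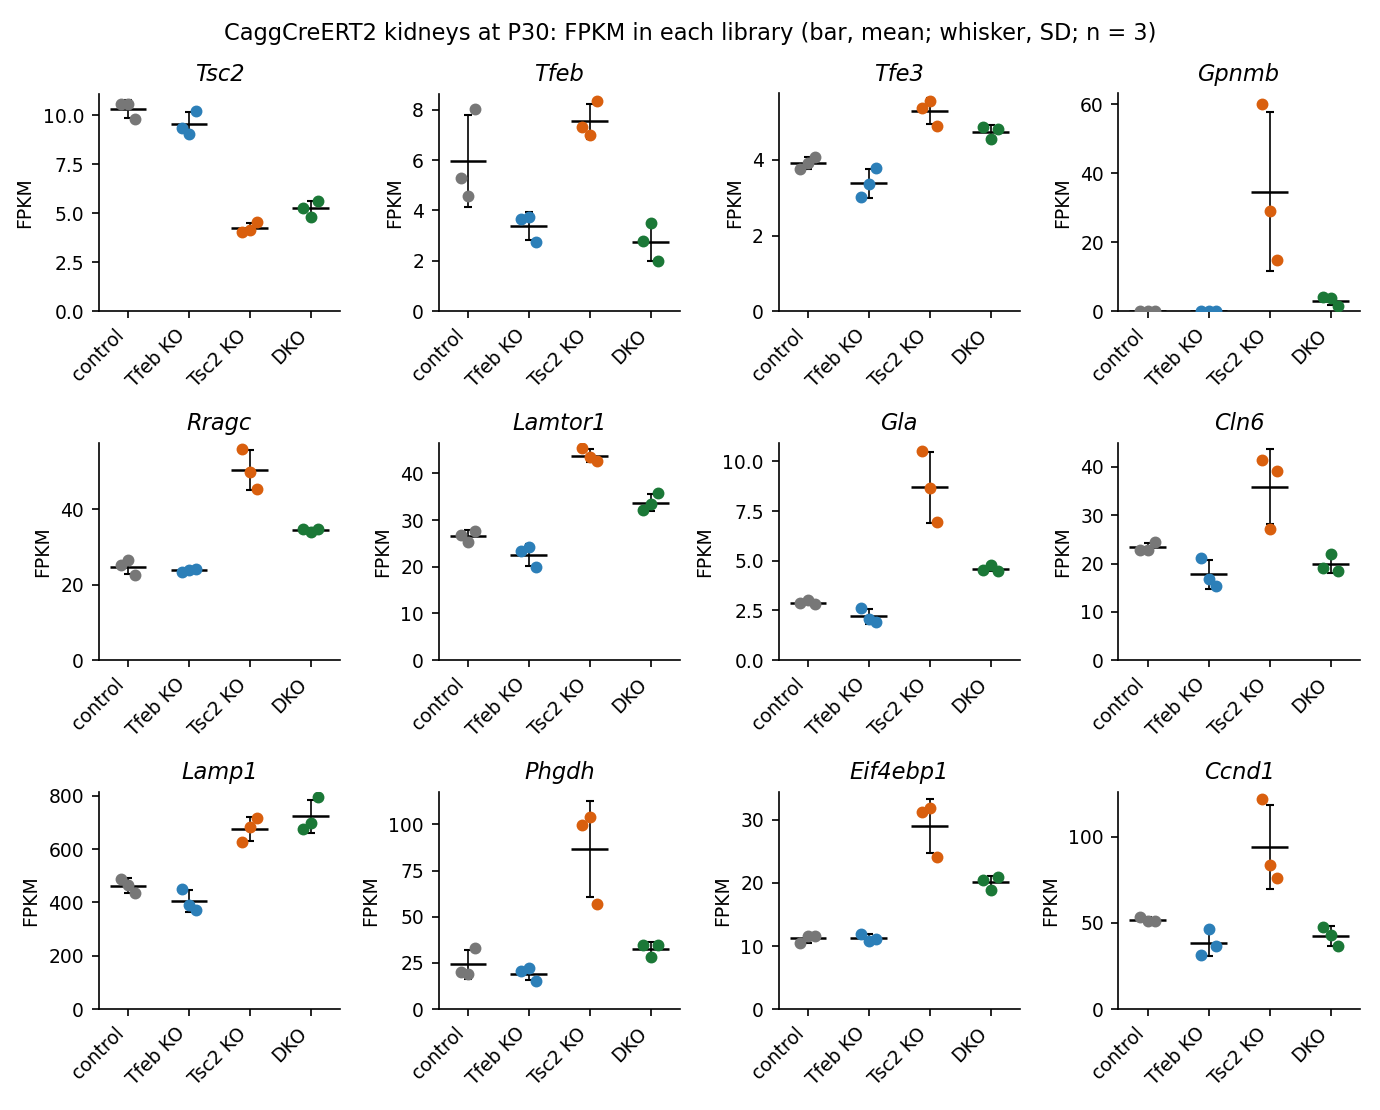
FPKM in each library (points) of control, Tfeb KO, Tsc2 KO and DKO kidneys for 12 genes, with the mean as a bar and the SD as a whisker (n = 3 libraries per group), on linear axes from 0. Gpnmb, Rragc, Lamtor1, Gla, Cln6, Phgdh, Eif4ebp1 and Ccnd1 are lower in DKO than in Tsc2 KO with no overlap, whereas Lamp1 overlaps. Groups do not overlap in 589 of all 598 decreased genes and in 37.2% of all genes.

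DKO and Tsc2 KO kidneys differed in many genes. Among 7906 genes with a mean of at least 5 FPKM in either group, 546 (6.91%) increased and 598 (7.56%) decreased in DKO at an adjusted p of 0.05, with 16348 genes tested. Of the increased genes 529 were protein-coding, their median log2 fold change was 0.80, and 199 changed at least 2-fold. Decreases were smaller, with a median size of 0.56 on the log2 scale and 92 genes at 2-fold or more. For comparison, 37.2% of all 7906 genes had DKO and Tsc2 KO libraries that did not overlap. The counts rest on single libraries to some degree, since they fell to 242 increased and 195 decreased genes without DKO 3 and to 243 and 193 without Tsc2 KO 1. They were 307 and 246 without DKO 2, 425 and 364 without DKO 1, and 776 and 772 without Tsc2 KO 3. With Xist added to the model as a covariate, 446 genes increased and 397 decreased.

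**Figure D2:**
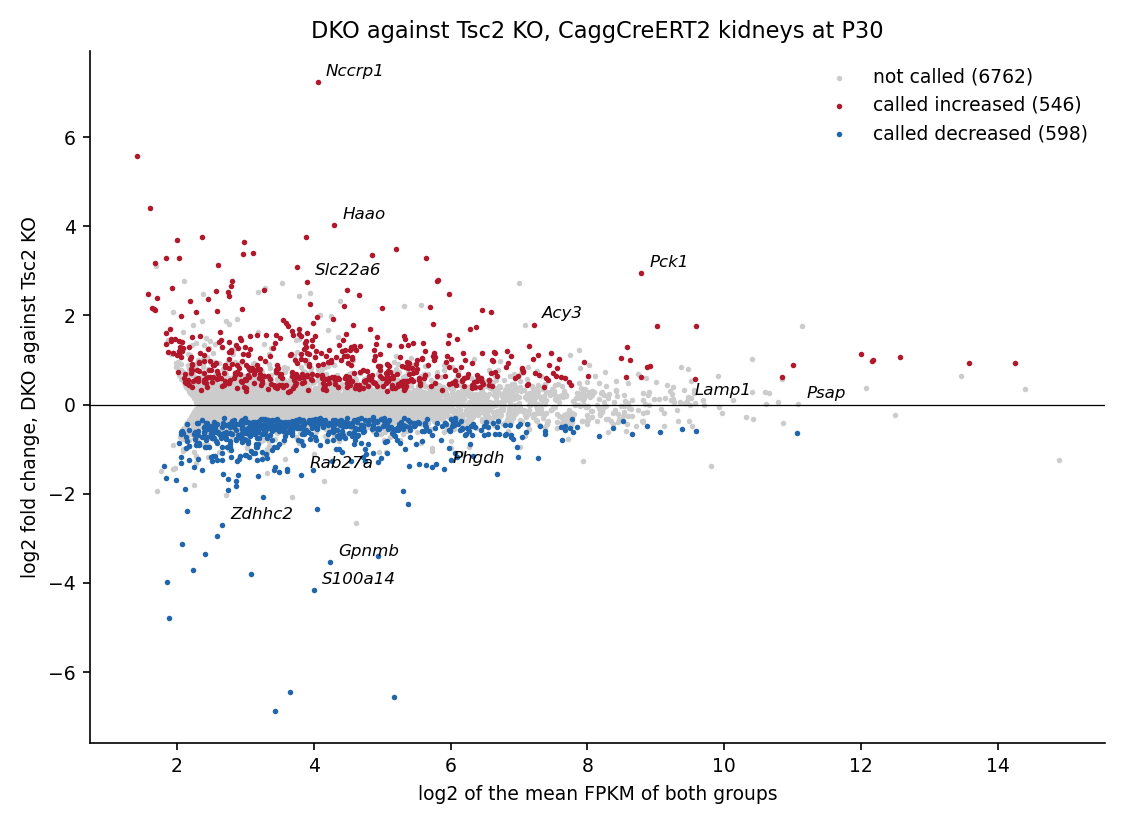
Each point is 1 of the 7906 genes at or above 5 FPKM in DKO or Tsc2 KO, with the log2 of its mean FPKM over both groups on the x axis and the log2 fold change of DKO against Tsc2 KO on the y axis. The 546 increased genes reach further from 0 than most of the 598 decreased ones, and the abundant lysosomal genes Psap and Lamp1 lie near 0.

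Among named protein-coding genes, the deepest falls were in genes that were low in control and high in Tsc2 KO. S100a14, a member of the S100 calcium-binding family, measured 55.4, 19.2 and 16.3 FPKM in Tsc2 KO and 1.86, 1.48 and 1.82 in DKO, against 0.978, 0.650 and 1.12 in control (17.9-fold lower in DKO, log2 fold change -4.17 ± 0.46 (SE), adjusted p = 4.06e-04). Gpnmb (ENSMUSG00000029816, mm10 chromosome 6, 49036546 to 49070929), a transmembrane glycoprotein of lysosomes and melanosomes and an established MiT/TFE target, measured 60.2, 29.1 and 14.8 FPKM in Tsc2 KO and 3.96, 3.67 and 1.53 in DKO (11.6-fold lower, log2 fold change -3.53 ± 0.47 (SE), adjusted p = 0.0012). Every control library of Gpnmb was near 0 (0.0358, 0.0235 and 0.0349 FPKM), so DKO was far below Tsc2 KO and still above control. Ogdhl, a paralog of the oxoglutarate dehydrogenase of the citric acid cycle, measured 5.24, 14.7 and 6.18 FPKM in Tsc2 KO and 0.772, 0.682 and 0.561 in DKO (13.1-fold lower), with control at 0.337, 1.08 and 1.21. Bex1, a small X-linked adaptor known from neurons, measured 31.01, 103 and 33.4 FPKM in Tsc2 KO and 3.82, 5.96 and 6.47 in DKO (10.5-fold lower). In these 4 genes the lowest Tsc2 KO library lay well above the highest DKO library. Groups that do not overlap were a condition of their choice, and 37.2% of all 7906 genes met it.

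Zdhhc2, a palmitoyltransferase, measured 13.99, 11.7 and 6.99 FPKM in Tsc2 KO and 1.59, 1.78 and 1.73 in DKO (log2 fold change -2.71 ± 0.24 (SE), adjusted p = 1.01e-04). Dkk3, a secreted protein of the Dickkopf family, measured 48.4, 101 and 37.3 FPKM in Tsc2 KO and 19.4, 15.5 and 14.4 in DKO (log2 fold change -1.95 ± 0.29 (SE), adjusted p = 0.0024). Pigr, which carries immunoglobulins across epithelia, measured 110.4, 36.9 and 56.7 in Tsc2 KO and 12.5, 13.5 and 18.3 in DKO (log2 fold change -2.23 ± 0.34 (SE), adjusted p = 0.0026). Hpgds, the haematopoietic prostaglandin D synthase, measured 14.5, 11.6 and 7.25 FPKM in Tsc2 KO and 4.09, 4.51 and 1.79 in DKO (log2 fold change -1.71). This call was lost without Tsc2 KO 1 (adjusted p = 0.056). Kng1, which encodes kininogen, the precursor of bradykinin, measured 16.4, 4.35 and 8.25 FPKM in Tsc2 KO and 1.17, 1.04 and 0.677 in DKO (log2 fold change -3.35, adjusted p = 0.014). The call was lost without DKO 2 (adjusted p = 0.051), DKO 3 (0.066) or Tsc2 KO 1 (0.067). Acta1, skeletal muscle actin, measured 10.3, 8.07 and 3.88 FPKM in Tsc2 KO and 1.33, 2.24 and 0.778 in DKO (log2 fold change -2.38). Its call was lost without DKO 1 (adjusted p = 0.054), DKO 3 (0.066) or Tsc2 KO 1 (0.077). Mamdc2, Ctxn1, Pamr1, Clic6 and Peg3 complete the 15 most decreased genes, with log2 fold changes of -3.14, -2.08, -1.90, -1.89 and -1.82.

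The most increased genes differed in their level in control. Nccrp1, a lectin-like protein with an F-box associated domain, was low there, at 33.7, 31.9 and 33.6 FPKM in DKO against 0.166, 0.488 and 0 in Tsc2 KO and 0.114, 0.0667 and 0.186 in control (log2 fold change 7.23, adjusted p = 6.37e-06), a fold change that rests on few reads in Tsc2 KO. It was also high in the Tfeb KO kidneys, at 28.7, 48.1 and 32.5 FPKM, so both groups with Tfeb deleted stood apart from both groups with Tfeb. Haao, an enzyme on the path from tryptophan to quinolinate, measured 104, 89.2 and 77.3 FPKM in control, 1.17, 1.94 and 3.72 in Tsc2 KO and 37.5, 25.7 and 48.3 in DKO, 16.2-fold higher than in Tsc2 KO (log2 fold change 4.02 ± 0.33 (SE), adjusted p = 6.24e-05). Hpd, the second enzyme of tyrosine breakdown, measured 0.0717, 0.351 and 1.72 FPKM in Tsc2 KO and 8.59, 8.42 and 11.7 in DKO (log2 fold change 3.75 ± 0.72 (SE), adjusted p = 0.0086), with control at 48.8, 72.3 and 24.99. Dnase1, the secreted nuclease, measured 1.68, 3.09 and 10.5 FPKM in Tsc2 KO and 48.2, 45.4 and 63.9 in DKO (10.2-fold higher), with control at 186, 243 and 131. In each of these 3 metabolic or secreted genes DKO lay between Tsc2 KO and control.

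Both urea transporter genes of the inner medulla and its vessels rose. Slc14a2 measured 1.32, 3.00 and 1.68 FPKM in Tsc2 KO and 21.97, 23.7 and 36.8 in DKO (log2 fold change 3.77 ± 0.30 (SE), adjusted p = 6.18e-05). Slc14a1 measured 0.866, 1.93 and 0.917 in Tsc2 KO and 11.8, 11.1 and 9.76 in DKO (log2 fold change 3.12 ± 0.41 (SE), adjusted p = 0.0011). Aqp8, a water channel, was lowest in control and highest in DKO, at 0.258, 0.355 and 0.612 FPKM in control, 12.2, 10.6 and 4.30 in Tsc2 KO and 95.2, 58.5 and 118 in DKO (log2 fold change 3.30 ± 0.42 (SE), adjusted p = 0.0010). The coagulation factor genes F10 and Proz, neighbours on chromosome 8, both rose. F10 measured 0.0745, 0.0684 and 0.173 FPKM in Tsc2 KO and 4.57, 5.23 and 5.83 in DKO (log2 fold change 5.58), and Proz measured 0.394, 0.640 and 0.862 in Tsc2 KO and 5.09, 4.88 and 7.39 in DKO (log2 fold change 3.18). Without DKO 3 their mean fell below the minimum of 5 FPKM. Pvalb, a calcium buffer of the distal convoluted tubule, measured 0, 0.658 and 1.36 FPKM in Tsc2 KO and 5.31, 6.28 and 7.98 in DKO, still below the control level of 36.6, 37.7 and 37.2, and its call was lost with the 2 groups fitted alone (adjusted p = 0.054). The remaining genes of the leading 15 were Serpina1d, Rec8, Rdh16f2, Baat and Apob, with log2 fold changes of 3.69, 3.64, 3.50, 3.37 and 3.29, of which Serpina1d and Rdh16f2 share sequence with close paralogs and are uncertain.

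**Figure D3:**
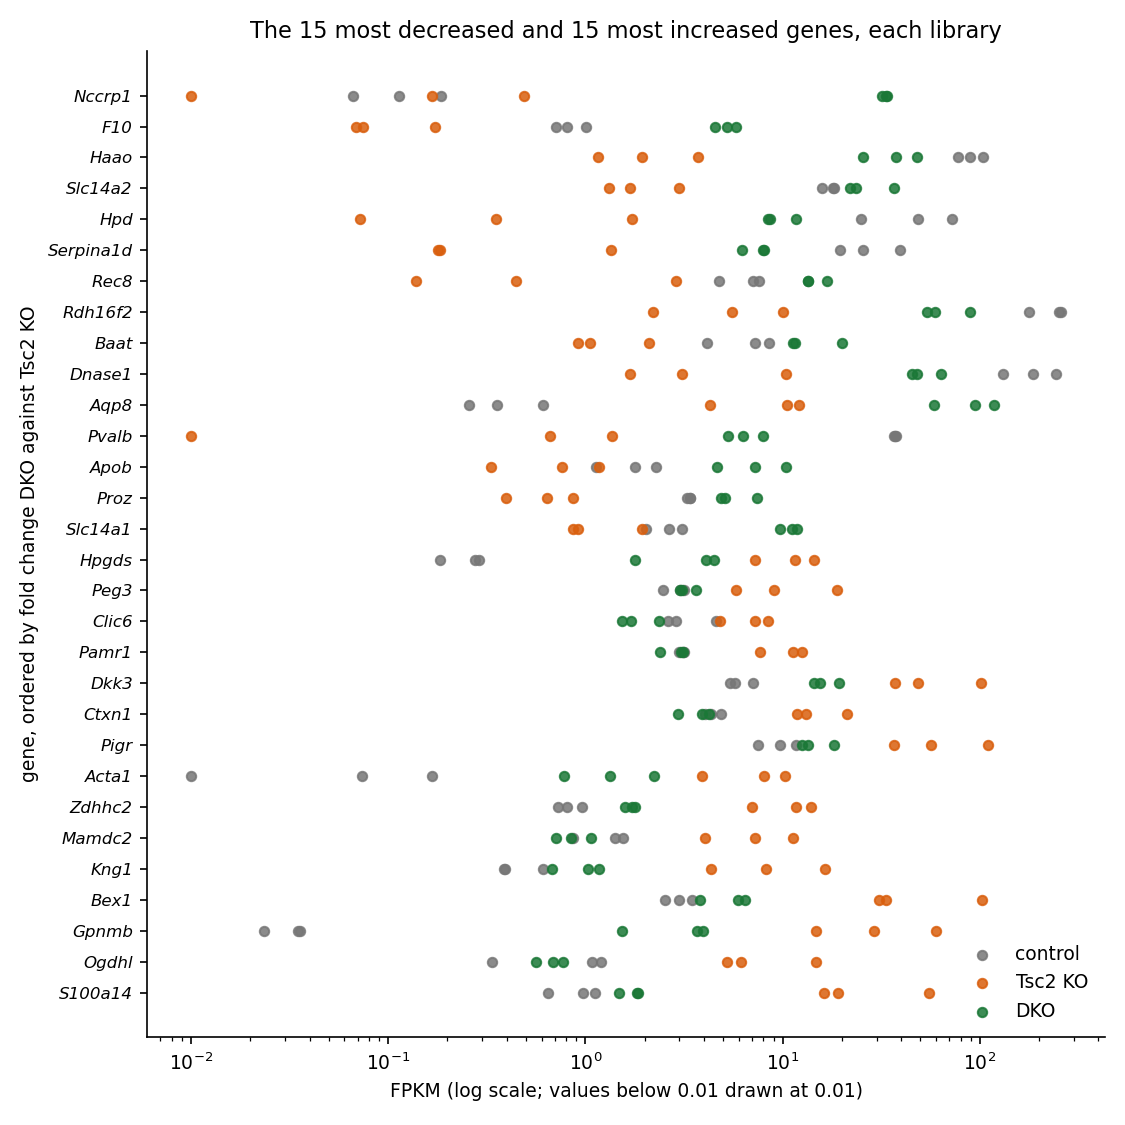
FPKM on a log axis in each library of control, Tsc2 KO and DKO for the 15 most decreased and the 15 most increased named protein-coding genes, ordered on the y axis by fold change. Points of Tsc2 KO and DKO do not overlap in any of the 30 genes, a condition of their choice.

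Lysosomal genes, the textbook targets of TFEB, showed a mixed picture. Of 95 genes of the KEGG lysosome set that reached 5 FPKM, 13 decreased and 4 increased in DKO, beside 7.56% and 6.91% of all genes, and their median log2 fold change was -0.12 against -0.04 over all genes. The study used this set on the same libraries, so its direction is not independent evidence, and 7 members decreased without DKO 3, 8 without DKO 1 or Tsc2 KO 1, and 17 without Tsc2 KO 3. The increased members were 1 without DKO 2, DKO 3 or Tsc2 KO 1 and 2 without Tsc2 KO 2. The set's median log2 fold change against control was 0.48 in Tsc2 KO and 0.33 in DKO. The most abundant members moved little. Psap, which encodes the precursor of the saposins that activate sphingolipid breakdown, measured 2485, 2382 and 1517 FPKM in Tsc2 KO, 2389.8, 2377 and 1795 in DKO and 525, 492 and 452 in control (DKO against Tsc2 KO log2 fold change 0.01, adjusted p = 0.97). The proteases Lgmn and Ctsb had log2 fold changes of -0.19 (adjusted p = 0.37) and 0.12 (adjusted p = 0.70), and the abundant membrane glycoprotein Lamp1 of 0.08 (adjusted p = 0.72). All 4 had overlapping groups, and the signs of Psap, Ctsb and Lamp1 turned under the library names of the count table.

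Decreased lysosomal genes lay among hydrolases, membrane proteins, V-ATPase subunits and sorting adaptors. Among 27 glycosidases and sulfatases 6 decreased and 2 increased, beside 7.56% and 6.91% of all genes, with 1 increased without any library but Tsc2 KO 3 and 3 decreased and 0 increased under the names of the count table. Arsg, a sulfatase of heparan sulfate breakdown, measured 14.8, 13.6 and 12.96 FPKM in Tsc2 KO and 6.28, 5.62 and 6.34 in DKO, with control at 8.40, 6.55 and 8.90 (log2 fold change -1.21 ± 0.15 (SE), adjusted p = 9.05e-04). Gla, the alpha-galactosidase lacking in Fabry disease, measured 10.5, 8.66 and 6.93 FPKM in Tsc2 KO and 4.53, 4.77 and 4.51 in DKO (log2 fold change -0.95 ± 0.17 (SE), adjusted p = 0.0054), with control at 2.89, 3.00 and 2.80. Manba, a beta-mannosidase, measured 29.2, 23.7 and 21.3 FPKM in Tsc2 KO and 16.9, 15.3 and 14.5 in DKO (log2 fold change -0.69 ± 0.12 (SE), adjusted p = 0.0054). Naglu, an N-acetylglucosaminidase of heparan sulfate breakdown, measured 42.2, 37.4 and 38.3 in Tsc2 KO and 29.3, 26.9 and 28.6 in DKO (log2 fold change -0.50 ± 0.09 (SE), adjusted p = 0.0053). No DKO library reached the lowest Tsc2 KO library in any of these 4. The same held for 589 of all 598 decreased genes, and groups did not overlap in 37.2% of all genes. Glb1, the lysosomal beta-galactosidase, went the other way, from 48.7, 60.4 and 49.5 FPKM in Tsc2 KO to 84.97, 80.4 and 88.1 in DKO (log2 fold change 0.65 ± 0.11 (SE), adjusted p = 0.0051).

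Asah1, acid ceramidase, measured 62.1, 47.4 and 38.4 FPKM in Tsc2 KO and 29.9, 27.2 and 25.4 in DKO (log2 fold change -0.87 ± 0.17 (SE), adjusted p = 0.0094). Npc2, which hands cholesterol out of the lysosome, measured 70.7, 70.3 and 68.6 FPKM in Tsc2 KO and 49.5, 52.3 and 56.7 in DKO (log2 fold change -0.43). This call was lost without DKO 1 (adjusted p = 0.071), DKO 2 (0.076) or Tsc2 KO 1 (0.069). Plbd1, a phospholipase B-like protein, rose from 1.02, 2.06 and 1.91 FPKM in Tsc2 KO to 5.60, 5.58 and 8.84 in DKO (log2 fold change 1.99 ± 0.26 (SE), adjusted p = 0.0012). Of 28 membrane proteins and transporters 5 decreased beside 7.56% of all genes (3 decreased without any library but Tsc2 KO 3, and 8 without that one), among them Cln6, mutated in a form of neuronal ceroid lipofuscinosis (41.4, 27.1 and 39.2 FPKM in Tsc2 KO, 19.1, 21.9 and 18.5 in DKO, log2 fold change -0.88 ± 0.16), and the phosphoinositide phosphatases Pip4p1 and Pip4p2 (log2 fold changes -0.49 ± 0.09 and -0.51 ± 0.09). V-ATPase subunits, which acidify the lysosome, had 2 of 22 decreased, near the 7.56% of all genes, or 0 without DKO 3 or Tsc2 KO 1 and 1 without DKO 1 or Tsc2 KO 2, and the larger change was Atp6v0d2, from 38.3, 26.1 and 42.2 FPKM in Tsc2 KO to 15.7, 22.6 and 16.4 in DKO (log2 fold change -0.98). Its call was lost without DKO 3 (adjusted p = 0.066) or Tsc2 KO 1 (0.054). Gga2, an adaptor that sorts hydrolases from the Golgi, fell from 20.7, 17.4 and 15.99 FPKM in Tsc2 KO to 12.4, 11.5 and 12.3 in DKO (log2 fold change -0.60 ± 0.12). Among 40 autophagy genes 2 decreased and 1 increased, beside 7.56% and 6.91% of all genes, with 5 decreased without Tsc2 KO 3 and 0 without any other library. The increased members were 0 without DKO 1, DKO 3 or Tsc2 KO 1. The receptor Sqstm1 measured 285, 307 and 241 FPKM in Tsc2 KO and 258, 252 and 257 in DKO (log2 fold change -0.15, adjusted p = 0.46).

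Of 15 melanosome and MiT/TFE-associated genes 4 decreased and 1 increased, beside 7.56% and 6.91% of all genes. There were 2 decreased members under the names of the count table, and 0 increased without DKO 1, DKO 2, DKO 3 or Tsc2 KO 1 and with Xist as a covariate. Rab27a, a GTPase of melanosome and granule transport, measured 26.5, 20.1 and 16.1 FPKM in Tsc2 KO and 7.03, 8.66 and 5.81 in DKO, near the control level of 10.2, 8.03 and 7.20 (log2 fold change -1.57 ± 0.20 (SE), adjusted p = 0.0010). Mreg, melanoregulin, measured 13.4, 14.05 and 14.4 FPKM in Tsc2 KO and 6.22, 8.67 and 7.22 in DKO (log2 fold change -0.94 ± 0.14 (SE), adjusted p = 0.0024).

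To show the DNA in which such an E-box would lie, the promoters of the 3 decreased lysosomal genes that hold CACGTG, and that of Gpnmb, an established target, are given from RefSeq (GRCm38.p6). Each run covers 250 bases before the annotated start and the first 30 bases of the gene, 5′ to 3′ on the gene's strand, with CACGTG in capitals. The letters were sought as CACGTG, which reads the same on both strands.
Naglu, chr11:101069844-101070123, plus strand: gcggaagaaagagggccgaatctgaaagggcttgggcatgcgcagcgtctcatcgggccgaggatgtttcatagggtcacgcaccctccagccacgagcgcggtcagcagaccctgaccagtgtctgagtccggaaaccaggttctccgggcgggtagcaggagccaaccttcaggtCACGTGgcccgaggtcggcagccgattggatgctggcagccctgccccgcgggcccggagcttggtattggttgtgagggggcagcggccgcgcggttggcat
Gla, chrX:134600976-134601255, minus strand: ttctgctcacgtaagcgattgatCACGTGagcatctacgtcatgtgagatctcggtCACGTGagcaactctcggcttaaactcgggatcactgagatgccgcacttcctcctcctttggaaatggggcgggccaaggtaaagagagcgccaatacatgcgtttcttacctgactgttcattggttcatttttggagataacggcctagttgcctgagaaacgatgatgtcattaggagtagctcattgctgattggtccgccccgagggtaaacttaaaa
Gga2, chr7:122021169-122021448, minus strand: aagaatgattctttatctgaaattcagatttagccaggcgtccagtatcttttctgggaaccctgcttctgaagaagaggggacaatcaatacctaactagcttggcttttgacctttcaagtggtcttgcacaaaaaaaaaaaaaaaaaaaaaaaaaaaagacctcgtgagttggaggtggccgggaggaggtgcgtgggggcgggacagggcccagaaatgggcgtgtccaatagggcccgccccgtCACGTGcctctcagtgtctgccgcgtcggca
Gpnmb, chr6:49036268-49036547, plus strand: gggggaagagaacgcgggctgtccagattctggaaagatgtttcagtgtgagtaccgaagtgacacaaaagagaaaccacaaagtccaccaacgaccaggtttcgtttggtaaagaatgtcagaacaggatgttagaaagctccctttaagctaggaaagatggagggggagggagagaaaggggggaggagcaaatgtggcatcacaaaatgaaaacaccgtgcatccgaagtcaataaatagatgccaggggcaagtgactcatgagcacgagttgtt
In Naglu the match begins 73 bases before the start, in Gla 2 matches begin 227 and 194 bases before it, and in Gga2 it begins 1 base before it. The Gpnmb window does not contain these letters. Of the 13 decreased KEGG lysosome genes, 10 had a promoter in the RefSeq table and 3 of the 10 held CACGTG, as did 2349 of 32851 RefSeq windows of the same length (7.15%) and 796 of the 6266 matched genes that reached 5 FPKM (12.7%), each searched over the whole RefSeq window, which runs slightly further into the gene than the stretch printed. With 3 of the 13 not matched, a comparison of the set's share with either of these is void. A match of letters is a description of the window and not a bound site.

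The Rag GTPases and their partners on the lysosome recruit mTORC1 when amino acids are present. Of 11 Rag, Ragulator and folliculin complex genes 2 decreased and 1 increased, beside 7.56% and 6.91% of all genes. Rragc, the RagC GTPase, measured 25.2, 26.4 and 22.6 FPKM in control, 55.96, 49.8 and 45.3 in Tsc2 KO and 34.8, 34.05 and 34.7 in DKO, so all 3 DKO libraries lay between the other groups (1.48-fold lower than Tsc2 KO, log2 fold change -0.57 ± 0.10 (SE), adjusted p = 0.0045). Rragd, the RagD GTPase, measured 37.5, 28.4 and 28.1 FPKM in Tsc2 KO and 21.2, 25.3 and 24.2 in DKO and did not pass the test (log2 fold change -0.43, adjusted p = 0.064), though it did without Tsc2 KO 3 (adjusted p = 0.035), in DESeq2 (0.032) and with no filter on low counts (0.031). Lamtor1, the Ragulator subunit that anchors it to the lysosome, measured 45.4, 43.6 and 42.6 FPKM in Tsc2 KO and 32.1, 33.4 and 35.7 in DKO (log2 fold change -0.40, adjusted p = 0.017). The call was lost without DKO 1 (adjusted p = 0.060), DKO 2 (0.061) or Tsc2 KO 1 (0.069). Flcn, encoding folliculin, measured 16.4, 14.96 and 17.9 FPKM in Tsc2 KO and 13.3, 13.8 and 15.7 in DKO (log2 fold change -0.23, adjusted p = 0.26), and its groups overlapped. Lamtor5, another Ragulator subunit, was the increased member, at 60.5, 65.96 and 72.5 FPKM in Tsc2 KO and 80.5, 100.4 and 94.99 in DKO (adjusted p = 0.039). This call was lost without DKO 2 (adjusted p = 0.17), DKO 3 (0.14), Tsc2 KO 1 (0.16) or Tsc2 KO 2 (0.088), and with Xist as a covariate (0.070). Among 9 genes of the TSC complex and mTORC1 core 1 decreased, beside 7.56% of all genes. It was Eif4ebp1, the translation repressor that mTORC1 phosphorylates, at 31.2, 31.9 and 24.1 FPKM in Tsc2 KO and 20.5, 18.9 and 20.9 in DKO against 10.5, 11.6 and 11.6 in control (log2 fold change -0.56 ± 0.12 (SE), adjusted p = 0.012). This call was lost without Tsc2 KO 1 (adjusted p = 0.057). Rps6kb1, the S6 kinase, had a log2 fold change of 0.02 (adjusted p = 0.92). These are transcript levels and do not measure kinase activity.

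ATF4 target genes serve amino acid and one-carbon supply and are known to follow mTORC1 activity. Of 30 members 11 decreased and 1 increased, beside 7.56% and 6.91% of all genes, and the median log2 fold change was -0.30. The decreased members were 4 without DKO 3 or Tsc2 KO 1, 5 without DKO 2, 7 without Tsc2 KO 2, and 15 without Tsc2 KO 3. Against control the list's median was 1.22 in Tsc2 KO and 0.68 in DKO. Phgdh, the first enzyme of serine synthesis, measured 99.9, 104 and 57.01 FPKM in Tsc2 KO and 34.5, 28.1 and 34.9 in DKO against 20.2, 19.2 and 33.2 in control (2.72-fold lower than Tsc2 KO, log2 fold change -1.45 ± 0.25 (SE), adjusted p = 0.0054). The transcription factor Atf5 measured 63.8, 73.5 and 44.4 FPKM in Tsc2 KO and 25.4, 23.3 and 22.5 in DKO (log2 fold change -1.38 ± 0.19 (SE), adjusted p = 0.0017). Aldh18a1 of proline synthesis measured 8.66, 11.7 and 5.37 in Tsc2 KO and 4.21, 4.25 and 3.85 in DKO (log2 fold change -1.09 ± 0.22 (SE), adjusted p = 0.011, or 0.0504 with the 2 groups fitted alone). The glycyl-tRNA synthetase Gars measured 60.9, 62.9 and 50.6 in Tsc2 KO and 40.7, 39.4 and 37.5 in DKO (log2 fold change -0.59 ± 0.10 (SE), adjusted p = 0.0049). In all 4, the DKO libraries lay below every Tsc2 KO library, as in 589 of all 598 decreased genes. Over all genes, 37.2% had groups that did not overlap. Mthfd2, a mitochondrial enzyme of one-carbon metabolism, measured 2.31, 2.53 and 2.67 FPKM in control, 12.3, 15.1 and 7.08 in Tsc2 KO and 7.46, 5.64 and 5.75 in DKO (log2 fold change -0.89, adjusted p = 0.032). The highest DKO library overlapped the lowest Tsc2 KO library, and the call for Mthfd2 was lost without DKO 2 (adjusted p = 0.11), DKO 3 (0.11), Tsc2 KO 1 (0.11) or Tsc2 KO 2 (0.10). Asns, asparagine synthetase, had a log2 fold change of -1.45 (adjusted p = 0.015) and was lost without DKO 2 (adjusted p = 0.058), DKO 3 (0.058) or Tsc2 KO 1 (0.064). Shmt2, the mitochondrial serine hydroxymethyltransferase, was the increased member, from 23.4, 29.7 and 34.98 FPKM in Tsc2 KO to 44.1, 51.9 and 63.5 in DKO (log2 fold change 0.84), lost without DKO 3 (adjusted p = 0.064) or Tsc2 KO 1 (0.054). Atf4 itself measured 68.9, 63.8 and 57.97 FPKM in Tsc2 KO and 49.6, 54.9 and 52.7 in DKO (adjusted p = 0.10).

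Several cell cycle genes decreased in DKO. Of 25 on the list 9 decreased, beside 7.56% of all genes, 3 had a positive log2 fold change, and their median log2 fold change was -0.60. The decreased members were 5 without DKO 2 or Tsc2 KO 1, and 22 without Tsc2 KO 3, and 6 without DKO 1 or DKO 3. Ccnd1, cyclin D1, measured 122, 83.8 and 76.2 FPKM in Tsc2 KO and 47.7, 43.2 and 36.3 in DKO, with control at 53.5, 51.3 and 50.95 (log2 fold change -1.17 ± 0.19 (SE), adjusted p = 0.0033). Its partner kinase Cdk4 measured 59.5, 63.5 and 59.6 FPKM in Tsc2 KO and 37.9, 36.1 and 32.1 in DKO (log2 fold change -0.81 ± 0.10 (SE), adjusted p = 8.44e-04). Mcm6, a subunit of the replicative helicase, measured 16.00, 12.6 and 13.2 in Tsc2 KO and 6.75, 7.53 and 6.85 in DKO (log2 fold change -1.01 ± 0.11 (SE), adjusted p = 3.27e-04). No library of DKO reached the Tsc2 KO range in these 3 genes, nor in 589 of all 598 decreased genes. Groups without overlap made up 37.2% of all genes. Pcna, the replication clamp, measured 40.6, 35.7 and 31.5 FPKM in Tsc2 KO and 27.8, 29.1 and 31.3 in DKO and did not pass (adjusted p = 0.10), though it did without Tsc2 KO 3 (adjusted p = 0.035). Cytoplasmic ribosomal protein genes had 13 of 43 decreased, beside 7.56% of all genes, and their median log2 fold change was -0.40, but 0 decreased without DKO 3, 2 without DKO 2 or Tsc2 KO 1, 3 without DKO 1, 4 without Tsc2 KO 3, 18 without Tsc2 KO 2, and 3 with Xist as a covariate. Rpl10a measured 158, 135 and 197 FPKM in Tsc2 KO and 97.1, 106 and 97.96 in DKO (log2 fold change -0.73), and its call and that of Rps4x (log2 fold change -0.70) were lost without DKO 3 (adjusted p = 0.065 for each). Ribosomal protein genes have many processed copies that can share reads, so single members are uncertain. Npm1, the nucleolar chaperone nucleophosmin, measured 108, 103 and 119.7 FPKM in Tsc2 KO and 66.8, 73.1 and 68.9 in DKO (log2 fold change -0.69 ± 0.10 (SE), adjusted p = 0.0024). Myc measured 12.1, 10.4 and 8.20 in Tsc2 KO and 6.87, 6.74 and 4.26 in DKO (log2 fold change -0.80) and was lost without DKO 3 (adjusted p = 0.074) or Tsc2 KO 1 (0.10).

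**Figure D4:**
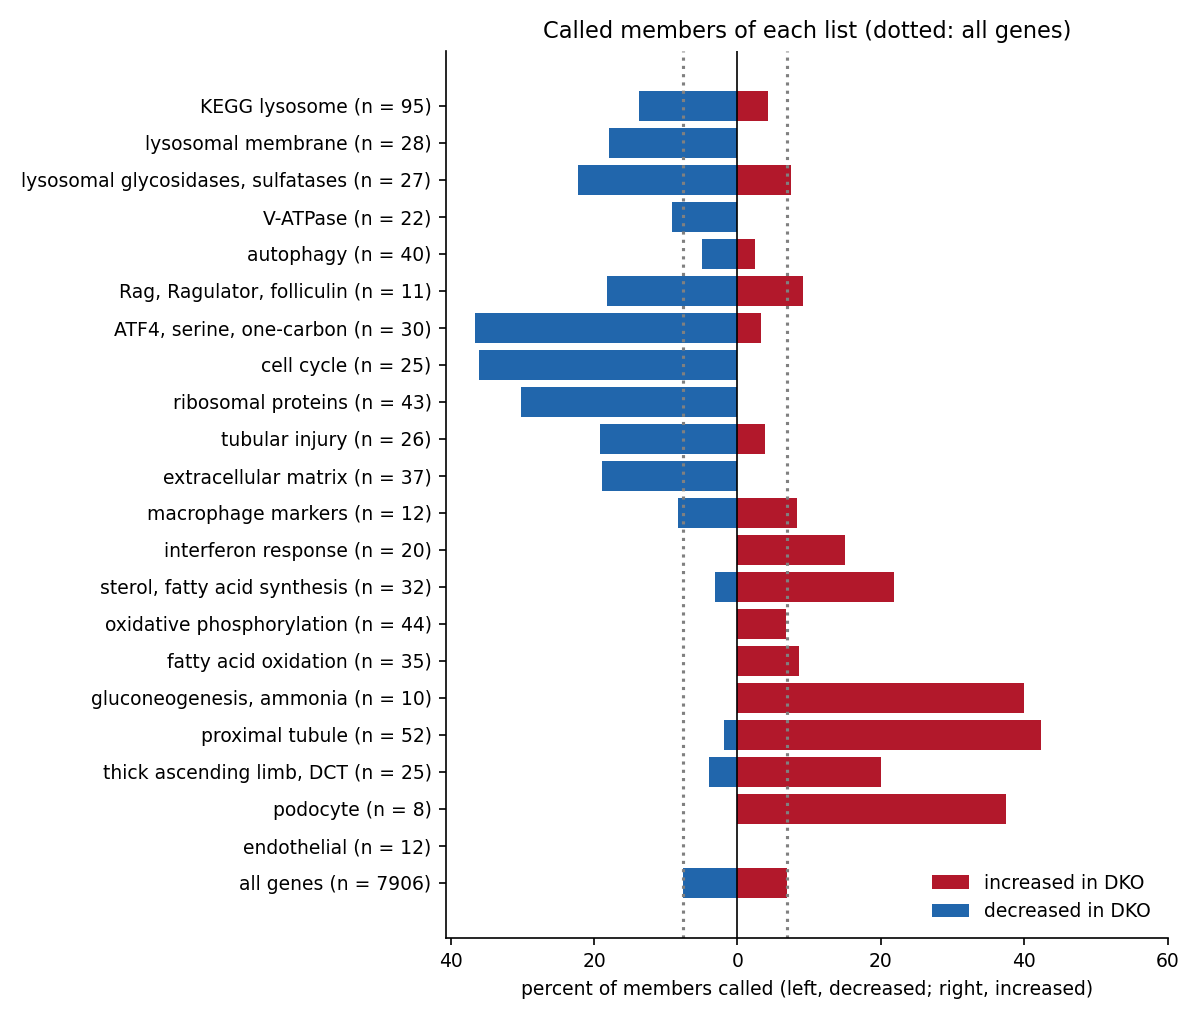
Share of the members of each gene list that decreased (left of 0) or increased (right of 0) in DKO against Tsc2 KO, in percent of the n members that reached 5 FPKM, with dotted lines at the shares over all genes (7.56% decreased and 6.91% increased). Cell cycle and ATF4 target genes extend furthest to the left, and, of the lists plotted, proximal tubule and gluconeogenesis genes extend furthest to the right.

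Many genes of the proximal tubule increased in DKO. Of 52 such genes 22 increased and 1 decreased, beside 6.91% and 7.56% of all genes. Their median log2 fold change was 0.68, and against control the list's median was -1.11 in Tsc2 KO and -0.47 in DKO. The increased members were 11 without DKO 3 or Tsc2 KO 1 and 14 without DKO 2. Slc22a6, the organic anion transporter OAT1, measured 124, 113 and 92.6 FPKM in control, 3.42, 3.42 and 4.50 in Tsc2 KO and 28.4, 21.4 and 28.3 in DKO (6.76-fold higher than Tsc2 KO, log2 fold change 2.76 ± 0.16 (SE), adjusted p = 3.79e-06). Acy3, an aminoacylase of the proximal tubule, measured 49.8, 71.2 and 76.9 FPKM in Tsc2 KO and 213, 250.1 and 231 in DKO (log2 fold change 1.79 ± 0.16 (SE), adjusted p = 1.08e-04). Hao2, a peroxisomal hydroxyacid oxidase, measured 15.7, 27.00 and 55.4 in Tsc2 KO and 148, 152 and 132 in DKO (log2 fold change 2.12 ± 0.33 (SE), adjusted p = 0.0031). DKO stayed below every control library in all 3, where control Acy3 was 372, 301 and 286 FPKM and control Hao2 482, 416 and 359. Lrp2 and Cubn, the megalin and cubilin receptors that take up filtered protein, had log2 fold changes of 0.85 and 1.00. The call for Lrp2 was lost without DKO 3 (adjusted p = 0.087) or Tsc2 KO 1 (0.075), and that for Cubn without DKO 3 (adjusted p = 0.10), Tsc2 KO 1 (0.088) or Tsc2 KO 2 (0.063). Slc34a1, the phosphate cotransporter, measured 277, 618 and 643 FPKM in Tsc2 KO and 781, 938 and 988 in DKO and did not pass (adjusted p = 0.072), though it did without Tsc2 KO 3 (adjusted p = 0.038). The decreased member was Cyp4b1 (38.1, 43.6 and 16.9 FPKM in Tsc2 KO, 14.03, 13.4 and 14.6 in DKO, log2 fold change -1.26 ± 0.25), a call lost with the 2 groups fitted alone (adjusted p = 0.054).

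Pck1, the rate-limiting enzyme of gluconeogenesis, measured 43.4, 109 and 145 FPKM in Tsc2 KO and 459.6, 555 and 1324 in DKO, with control at 751, 619 and 471 (log2 fold change 2.95 ± 0.45 (SE), adjusted p = 0.0028), and 4 of 10 genes of gluconeogenesis and ammonia production increased, beside 6.91% of all genes, or 7 without Tsc2 KO 3, 1 without DKO 3 and 2 without any other library. Of 25 genes of the thick ascending limb and distal convoluted tubule 5 increased and 1 decreased, beside 6.91% and 7.56% of all genes, with 2 increased without Tsc2 KO 1, 3 without DKO 2 and 9 without Tsc2 KO 3. Egf, which the distal nephron makes in quantity, measured 5.36, 15.3 and 36.1 FPKM in Tsc2 KO and 88.8, 110.0 and 121 in DKO (log2 fold change 2.48 ± 0.48 (SE), adjusted p = 0.0086), with control at 178, 189.7 and 127. The call was lost with the 2 groups fitted alone (adjusted p = 0.0504). Slc12a1, the NKCC2 cotransporter, measured 80.01, 89.5 and 122 FPKM in Tsc2 KO and 204, 225 and 206 in DKO (log2 fold change 1.10). The call was lost without Tsc2 KO 1 (adjusted p = 0.063). Trpv5, an epithelial calcium channel, was the decreased member (26.8, 11.9 and 14.7 FPKM in Tsc2 KO and 6.11, 7.68 and 5.68 in DKO, log2 fold change -1.48 ± 0.27). Among 12 principal cell genes 1 increased, near the 6.91% of all genes, with 0 without Tsc2 KO 1, 2 without Tsc2 KO 2, 3 without DKO 2 and 4 without Tsc2 KO 3. Without Tsc2 KO 2, 3 decreased. The increased member was Fxyd4, a subunit that modulates the sodium pump, from 4.89, 10.7 and 8.45 FPKM in Tsc2 KO to 43.1, 21.7 and 27.4 in DKO (log2 fold change 1.93), lost without Tsc2 KO 1 (adjusted p = 0.062). The vasopressin-regulated water channel Aqp2 measured 175, 161 and 207 FPKM in Tsc2 KO and 455, 228 and 335 in DKO and did not pass (adjusted p = 0.065), though it did without DKO 2 (adjusted p = 0.048). Among 8 podocyte genes 3 increased, beside 6.91% of all genes, including nephrin of the slit diaphragm (Nphs1, 1.74, 2.55 and 3.36 FPKM in Tsc2 KO and 5.52, 6.20 and 6.02 in DKO, log2 fold change 1.197 ± 0.200). The summed level of the 12 podocyte markers was 163 to 165 FPKM in DKO, 98.5 to 119 in Tsc2 KO and 216 to 234 in control. The summed level of the 16 endothelial genes overlapped (277 to 352 FPKM in DKO, 212 to 352 in Tsc2 KO).

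Prlr, the prolactin receptor, measured 1.10, 1.46 and 1.94 FPKM in Tsc2 KO and 8.05, 7.46 and 7.52 in DKO (log2 fold change 2.33 ± 0.20 (SE), adjusted p = 6.31e-05). Slc7a12, an amino acid transporter, measured 8.65, 9.23 and 7.77 in Tsc2 KO and 24.2, 20.97 and 16.4 in DKO (log2 fold change 1.24 ± 0.17 (SE), adjusted p = 0.0014). Both belong to the list of genes that differ between male and female mouse kidneys, of which 5 of 11 increased (3 without DKO 3, Tsc2 KO 1 or Tsc2 KO 2) and 1 decreased, beside 6.91% and 7.56% of all genes. Kap, the androgen-regulated kidney protein, measured 83.5, 219 and 2766 FPKM in Tsc2 KO and 3358, 3806 and 3259.8 in DKO (adjusted p = 0.22, or 6.6e-05 without Tsc2 KO 3). The female-like libraries, Tsc2 KO 1 and Tsc2 KO 3, were not alike in Kap. Cyp24a1, which inactivates vitamin D, rose from 1.13, 2.34 and 1.71 FPKM in Tsc2 KO to 11.5, 12.7 and 6.20 in DKO (log2 fold change 2.54 ± 0.41).

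Some genes of lipid synthesis increased. Among 32 genes of sterol and fatty acid synthesis 7 increased, or 4 without DKO 3, and 1 decreased, beside 6.91% and 7.56% of all genes, and the median log2 fold change was 0.09. The decreased members were 0 without DKO 1, DKO 2, DKO 3 or Tsc2 KO 1 and with Xist as a covariate, and 3 without Tsc2 KO 3. Me1, malic enzyme, a source of NADPH, measured 35.3, 44.99 and 37.6 FPKM in Tsc2 KO and 79.1, 75.3 and 99.1 in DKO (log2 fold change 1.08 ± 0.13 (SE), adjusted p = 8.32e-04). Ebp, a sterol isomerase, measured 19.2, 20.8 and 25.6 in Tsc2 KO and 34.7, 38.05 and 49.6 in DKO (log2 fold change 0.87 ± 0.16 (SE), adjusted p = 0.0064). Scd1, stearoyl-CoA desaturase, measured 13.8, 22.8 and 5.69 FPKM in Tsc2 KO and 81.4, 52.8 and 158 in DKO (log2 fold change 2.76, adjusted p = 0.011). Its call was lost without Tsc2 KO 1 (adjusted p = 0.052). Fat cells also express Scd1, and the 12 adipocyte markers, none of them at 0 throughout a group, summed to 46.0 to 232 FPKM in Tsc2 KO and 123 to 916 in DKO, the highest in DKO 3. The part of fat tissue in this result was not tested. Of 44 nuclear genes of oxidative phosphorylation 42 had a positive log2 fold change and 3 passed the test, and of 35 fatty acid oxidation genes 3 increased, both close to the 6.91% of all genes, with 8 and 15 increased without Tsc2 KO 3, 7 and 3 without DKO 1, and 0 in either list without DKO 2, DKO 3 or Tsc2 KO 1. Ech1, a peroxisomal and mitochondrial isomerase of fatty acid oxidation, had a log2 fold change of 0.98 and was lost without DKO 2 (adjusted p = 0.055), DKO 3 (0.076) or Tsc2 KO 1 (0.077).

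Some injury and matrix genes decreased in DKO. Of 26 genes of tubular injury and dedifferentiation 5 decreased and 1 increased, beside 7.56% and 6.91% of all genes, and the median log2 fold change was -0.62. The decreased members were 1 without DKO 3 or Tsc2 KO 1, 2 without DKO 2 and 11 without Tsc2 KO 3. Fgg, the fibrinogen gamma chain, a marker of tubular injury, measured 161, 91.2 and 79.96 FPKM in Tsc2 KO and 56.6, 51.2 and 43.3 in DKO against 3.62, 3.07 and 2.91 in control, so DKO remained far above control (log2 fold change -1.16 ± 0.22 (SE), adjusted p = 0.0073). Fgb, the beta chain, had a log2 fold change of -1.60 and was lost without DKO 2 (adjusted p = 0.058), DKO 3 (0.066) or Tsc2 KO 1 (0.082), and with Xist as a covariate (0.057). The increased member was Itgb6, an integrin subunit of injured epithelium, at 11.4, 8.54 and 14.4 FPKM in Tsc2 KO and 24.9, 24.6 and 24.4 in DKO (log2 fold change 1.09 ± 0.19 (SE), adjusted p = 0.0051). Spp1, osteopontin, the most abundant member, measured 7441, 6137 and 4952 FPKM in Tsc2 KO and 5882, 6393 and 3838 in DKO and did not pass (log2 fold change -0.23, adjusted p = 0.54). Of 37 extracellular matrix and fibrosis genes 7 decreased, beside 7.56% of all genes, and 3 had a positive log2 fold change, with 1 to 3 decreased without any library but Tsc2 KO 3 and 9 without that one. Mmp14, a membrane-bound matrix protease, measured 24.7, 25.4 and 19.6 FPKM in Tsc2 KO and 10.1, 8.88 and 6.56 in DKO (log2 fold change -1.47 ± 0.17 (SE), adjusted p = 4.79e-04). Acta2, smooth muscle actin, measured 84.4, 128 and 56.7 in Tsc2 KO and 46.96, 35.8 and 32.8 in DKO (log2 fold change -1.24) and was lost without DKO 2 (adjusted p = 0.092), DKO 3 (0.11), Tsc2 KO 1 (0.075) or Tsc2 KO 2 (0.091).

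Among 12 macrophage markers that reached 5 FPKM, 1 decreased and 1 increased, near the 7.56% and 6.91% of all genes, and 11 had a negative log2 fold change. The increased members were 0 with Xist as a covariate and without any library but Tsc2 KO 3. The decreased members were 1 without DKO 2 or Tsc2 KO 3, and 0 without any other library or with Xist as a covariate. The 25 markers of the full list, none at 0 throughout a group, summed to 239 to 295 FPKM in Tsc2 KO and 166 to 245 in DKO, ranges that overlap. Gpnmb is also expressed by macrophages, whose part in its change was not tested. Cd68, a lysosomal protein of macrophages, measured 23.3, 18.04 and 14.4 FPKM in Tsc2 KO and 12.1, 10.8 and 7.41 in DKO (adjusted p = 0.050) and was lost without DKO 1 (adjusted p = 0.064), DKO 2 (0.10), DKO 3 (0.17), Tsc2 KO 1 (0.21) or Tsc2 KO 2 (0.082), and with Xist as a covariate (0.057). Of 20 interferon response genes 3 increased, beside 6.91% of all genes, and the median log2 fold change was 0.47, but 0 increased without DKO 1, DKO 2 or Tsc2 KO 1, 1 without Tsc2 KO 2 and 10 without Tsc2 KO 3. Cxcl10, an interferon-induced chemokine, measured 2.01, 3.82 and 2.39 FPKM in Tsc2 KO and 15.6, 24.1 and 9.80 in DKO (log2 fold change 2.57 ± 0.32 (SE), adjusted p = 8.27e-04), above every control library (2.12, 2.11 and 1.99 FPKM). No T cell or neutrophil marker reached 5 FPKM in either group.

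The cohort also allowed a test of whether the Tfeb difference was itself changed by loss of Tsc2, as the interaction (DKO against Tsc2 KO) minus (Tfeb KO against control). Of 8341 genes at 5 FPKM in any of the 4 groups, 136 (1.63%) had a more positive and 42 (0.504%) a more negative Tfeb difference without Tsc2. The Tfeb KO kidneys were all female-like and the controls all male-like, so sex and Tfeb loss cannot be told apart in the second difference, and with Xist as a covariate 19 and 5 genes passed. Tfeb KO 1 also held 332 FPKM of 12 adrenal cortex markers against 34.01 to 36.8 in the controls, and without it 218 and 72 genes passed, whereas 47 and 13 passed without control 1. S100a14 had an interaction of -4.94 ± 0.68 (adjusted p = 0.0054), with a log2 fold change of 0.78 between Tfeb KO and control. Zdhhc2 had -2.66 ± 0.35 (adjusted p = 0.0040), with -0.05. Slc22a6 had 3.35 ± 0.21 (adjusted p = 2.57e-05), with -0.59 between Tfeb KO and control. Haao had 4.16 ± 0.42 (adjusted p = 0.0010), with -0.14. In these 4 genes the Tfeb difference was thus larger without Tsc2 than with it, but with Xist as a covariate S100a14 (adjusted p = 0.17) and Zdhhc2 (0.085) did not pass, whereas Slc22a6 (0.0017) and Haao (0.0077) did. Gpnmb, near 0 in both groups with Tsc2, did not pass (-4.02, adjusted p = 0.27).

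The same contrast was made in 2 further cohorts of the series, in kidneys from KspCre mice, where the cadherin-16 promoter limits deletion to kidney epithelium, at P50. These libraries share nothing with the CaggCreERT2 ones, and the tables were normalized separately, so fold changes are set side by side with no test across them. In the vehicle-treated KspCre mice, 1345 of 7950 genes (16.9%) increased and 1003 (12.6%) decreased in DKO against Tsc2 KO. Of the 546 genes increased in the CaggCreERT2 kidneys, 375 also increased there, 68.7% of the former and 27.9% of the latter, 2 decreased, and 95.6% had a positive log2 fold change, against 51.6% of all genes. Of the 598 decreased genes, 268 also decreased, 44.8% of the former and 26.7% of the latter, 1 increased, and 91.3% had a negative log2 fold change, against 48.4% of all genes. In the untreated KspCre mice, 9 genes (0.117%) increased and 13 (0.169%) decreased, and DESeq2 called 188 and 157. An unadjusted p under 0.05 was reached by 1063 genes (13.8%), with no correction for the number of tests. With the replicate number as a block, 0 increased and 1 decreased in that cohort. Of the 598 decreased genes 514 of 597 measured there had a negative log2 fold change (86.1%), against 58.1% of all genes, and of the 546 increased genes 349 had a positive one (63.9%), against 41.9%.

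Values are given first for 6 of the genes described above. The log2 fold change in vehicle-treated KspCre kidneys was -4.77 for Gpnmb (adjusted p = 2.94e-04), -2.29 for Zdhhc2 (3.74e-05), -0.68 for Rragc (0.0023), -1.45 for Phgdh (0.0043), 3.51 for Slc22a6 (4.54e-05) and 2.93 for Pck1 (9.12e-05). In untreated KspCre kidneys it was -1.46 for Gpnmb (adjusted p = 0.31), -1.81 for Zdhhc2 (0.021), -0.31 for Rragc (0.25), -0.34 for Phgdh (0.82), 1.25 for Slc22a6 (0.060) and 0.28 for Pck1 (0.87). All but Zdhhc2 were called in the vehicle cohort, in the direction of the CaggCreERT2 kidneys, and none of the 6 was called in the untreated cohort. Other leading genes differed from these 6. Nccrp1 had 1.11 in the vehicle cohort (adjusted p = 0.56). Rec8 had the opposite sign, at -0.84 in the vehicle (0.19) and -1.87 in the untreated cohort (0.19). Dkk3 (-2.65, adjusted p = 0.021) and Pamr1 (-1.48, 0.025) were called in the untreated cohort, but not with the replicate block (0.053 for each). Zdhhc2 stayed below the minimum of 5 FPKM in both KspCre cohorts, and its adjusted p in the untreated one was 0.051 with the block. Among lists, the cell cycle median was -1.46 in vehicle-treated and -0.57 in untreated KspCre kidneys. The proximal tubule median was 1.60 in vehicle-treated kidneys, where 38 of its members increased beside 16.9% of all genes, and 0.28 in untreated ones, where 2 increased beside 0.117% of all genes. With the replicate number as a block, 0 genes increased in the untreated cohort, so these 2 calls were lost. Ribosomal protein genes had a median of -0.40 in the CaggCreERT2 kidneys, where 13 of 43 decreased, or 0 without DKO 3. Their medians were 0.03 in the vehicle and 0.04 in the untreated KspCre cohort. Macrophage markers had a median of -0.96 in the vehicle and 0.80 in the untreated cohort. The KEGG lysosome set had a median of -0.14 in the vehicle cohort, where 17 of 95 decreased and 8 increased, beside 12.6% and 16.9% of all genes. Its median in the untreated cohort was -0.21, and no member was called there, where few genes were. Arsg had a log2 fold change of -0.27 in vehicle-treated kidneys (adjusted p = 0.25), Glb1 of 0.33 (0.12), and Cxcl10 of 0.43 (0.38). The difference between cohorts was not tested.

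**Figure D5:**
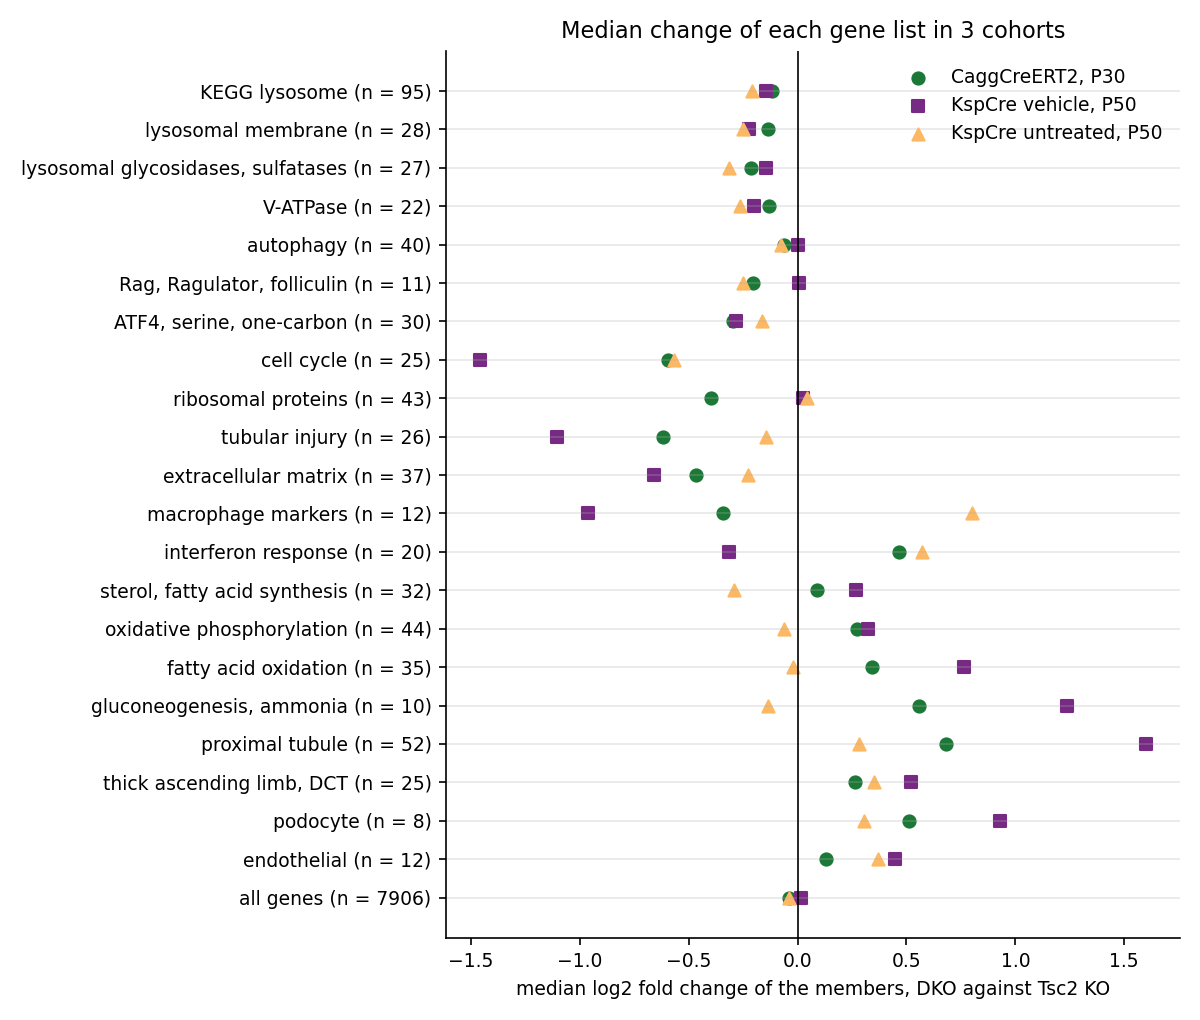
Median log2 fold change of DKO against Tsc2 KO over the members of each gene list in the CaggCreERT2 kidneys at P30, the vehicle-treated KspCre kidneys at P50 and the untreated KspCre kidneys at P50. Proximal tubule genes lie right of 0 and cell cycle genes left of 0 in the CaggCreERT2 and vehicle cohorts, whereas ribosomal protein genes lie left of 0 in the CaggCreERT2 kidneys and near 0 in the others.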

How the data were processed

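Poly-A RNA of whole kidney (cells mixed, per the labels) was sequenced from non-directional libraries, so overlapping antisense genes cannot be separated. The submitters' processing notes name STAR 2.6.1d, HISAT2 2.0.5, featureCounts 1.5.0-p3, DESeq2 1.20.0 and mm10. The authors deposited raw counts per gene and FPKM per cohort. Columns of the 2 kinds of table were joined by the constant ratio of FPKM times gene length to count, and libraries were named as in the FPKM table, since 4 of 12 CaggCreERT2 count columns carry another name.

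Counts were tested with edgeR 4.0.16 (R 4.3.3, TMM, filterByExpr, quasi-likelihood, all groups of a cohort in 1 fit, 4 or, with rapamycin groups, 6, no covariate), with Benjamini-Hochberg adjustment over all genes kept in that cohort (16348 in CaggCreERT2), two-sided. Calls needed an adjusted p no higher than 0.05 together with a group mean of 5 or more in the deposited FPKM, in DKO or Tsc2 KO. Alternatives were DESeq2 1.42.0, RLE scaling, Xist as a covariate, the 2 groups alone, the names of the count table, no filter on low counts, other FPKM minimums, a replicate block and each library left out. In simulated data, 200 changed genes of 16056 were recovered at 71% (log2 change of 1) and 93% (log2 change of 2), with 1.2% false calls among calls. The simulated counts were independent, with no differences of sex, blood or fat between libraries and no FPKM minimum. They check the code, and the 1.2% is not the error rate of the calls reported here. Same-numbered DKO and Tsc2 KO libraries deviated together in the untreated KspCre cohort (r 0.239, 0.246 and 0.189, against -0.323 to 0.005 for differently numbered ones), but not in the CaggCreERT2 cohort. The labels do not say whether libraries were paired, and pairing was not tested. Fits without and with the replicate number as a block are therefore both given. 

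Named genes were Tsc2, Tfeb and genes the study names, the 15 most increased and decreased protein-coding genes with groups that do not overlap (symbols of the form Gm plus a number or ending in Rik left out), and from each list up to 4 called members per direction with the lowest adjusted p and up to 2 abundant uncalled ones, of which some are not printed. The comparison and the gene lists were chosen with earlier results of these data known. Lists are described by counts and medians without a set test. Promoters come from RefSeq (GRCm38.p6). Under 80% of the called genes matched a promoter, so shares over all called genes are void and not given. Of the 7906 genes that reached 5 FPKM 79.3% matched, also under 80%, so the share printed above describes the matched genes only.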

Additional observations from a re-analysis of the deposited data

Results flagged for a closer look

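The following genes were noted because their Tfeb difference itself differed between kidneys without and with Tsc2 (interaction at an adjusted p of 0.05 in edgeR). The Tfeb KO kidneys were female-like and the controls male-like, so sex and Tfeb loss cannot be told apart in the difference with Tsc2. With Xist as a covariate 4 of the 17 genes with a negative interaction named here passed (Ogdhl, Dkk3, Pamr1 and Gm7993), and 5 of the 18 with a positive one (Haao, Rdh16f2, Baat, Proz and Slc22a6). Over the fits without 1 of the 12 libraries, 7 to 17 and 10 to 18 of them passed. Values are the interaction on the log2 scale, (DKO against Tsc2 KO) minus (Tfeb KO against control).

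Among genes of the deepest falls, the interaction was -4.94 for S100a14, -4.21 for Ogdhl, -2.98 for Bex1, -4.95 for Kng1, -2.66 for Zdhhc2, -1.75 for Ctxn1, -2.77 for Dkk3 and -1.87 for Pamr1. For injury, matrix and growth genes it was -4.26 for Fgb, -1.64 for Fgg, -2.15 for Acta2 and -0.69 for Mcm6, and for ATF4 targets -1.36 for Atf5 and -1.53 for Aldh18a1. Of lysosomal genes, Glb1 had 0.86, Plbd1 1.82 and Pip4p1 -0.61.

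Positive interactions were 4.58 for F10, 4.16 for Haao, 2.57 for Slc14a2, 4.46 for Rec8, 3.97 for Rdh16f2, 3.07 for Baat, 3.59 for Pvalb, 3.12 for Apob and 3.32 for Proz. Proximal tubule genes among them were Slc22a6 with 3.35, Acy3 with 1.86 and Hao2 with 2.39. Me1 had 1.24, Cxcl10 2.08, Prlr 2.14 and Slc7a12 1.23, the last 2 on the list of sex-biased kidney genes. With Xist as a covariate the interaction was 0.66 for Cxcl10 (adjusted p = 0.72) and 0.71 for Slc7a12 (0.56). The processed pseudogenes Tma7-ps and Gm7993, described below, had -6.33 and -12.75.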

How the results depend on the processing

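Of 113 named genes 94 were called, 0 of the called ones turned sign under any alternative run, and 27 kept their call under every alternative. The call was lost most often with the FPKM minimum asked in every library (44 genes), under the names of the count table (24), without Tsc2 KO 1 (22), without DKO 3 (20), without DKO 2 (10) and with the 2 groups fitted alone (10, namely Mthfd2, Pvalb, Lamtor5, Aldh18a1, Cubn, Cyp4b1, Egf, Cd68, Myc and Ucp1). Of genes not called, Tsc2, Rragd, Slc34a1 and Aqp2 passed in DESeq2, and Rragd, Kap, Slc34a1, Aqp2 and Cfd with no filter on low counts. The names of the count table place a library with intact Tsc2 levels in the DKO group. The cause of the other losses was not tested.

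In the CaggCreERT2 kidneys, where 546 genes increased and 598 decreased, the 2 groups alone gave 330 and 333, 338 increased under the count table's names, Xist as a covariate 397 decreased and no FPKM minimum 873 increased. Leaving out 1 library gave 242 to 776 increased and 193 to 772 decreased genes. For the interaction (136 and 42), DESeq2 gave 461 and 198, no filter on low counts 470 and 203, Xist as a covariate 19 and 5, 47 were positive under the count table's names, the FPKM minimum in every library 80 and 19, and leaving out 1 of the 12 libraries 47 to 429 and 11 to 170, of which the fits without a Tfeb KO or control library were added after the data were seen. In untreated KspCre mice (9 and 13), DESeq2 gave 188 and 157, the 2 groups alone 5 and 8, and leaving out 1 library 0 to 12 and 1 to 12. In vehicle-treated KspCre mice (1345 and 1003), no FPKM minimum gave 2031 and 1710, and leaving out 1 library 1015 to 1371 and 682 to 909.

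With the replicate number as a block, the CaggCreERT2 kidneys had 433 increased and 453 decreased genes and interactions of 89 and 23, untreated KspCre kidneys 0 and 1, and vehicle-treated ones 1345 and 994. Same-numbered libraries of the CaggCreERT2 cohort had deviations with r of 0.089, -0.139 and -0.022, so they share only a number, and not every library correlated best with its own number.

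Genes whose sign turned were all uncalled. Tfec was -0.027 and Lamp1 -0.14 under the names of the count table, Ctsb -0.27 under those names and -0.050 to 0.34 over the fits without 1 library, and Rps6kb1 -0.037 to 0.096 over those fits, both lowest without Tsc2 KO 3. Psap was -0.10 with Xist as a covariate, -0.50 under the names of the count table, and -0.19 to 0.15 over the fits without 1 library, below 0 without DKO 1, DKO 2 or Tsc2 KO 3. The cause was not tested.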

Other observations

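Messenger RNAs of the mitochondrial genome, a set chosen after its values were seen, were higher in DKO. All 13 protein-coding genes of the mitochondrial genome had a positive log2 fold change against Tsc2 KO, with a median of 0.94 (0.16 to 1.48), and 8 of the 13 passed the test, beside 6.91% of all genes that increased. Their share of all counts was 4.53% to 5.56% in Tsc2 KO, 7.87% to 10.3% in DKO and 7.90% to 12.7% in control, so Tsc2 KO did not overlap the other groups. In the KspCre cohorts the median log2 fold change was 0.99 in vehicle-treated and 0.22 in untreated kidneys. The set stands beside the nuclear genes of oxidative phosphorylation, whose median was 0.27.

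Some processed pseudogenes, noticed after their values were seen and left out by the naming rule, had large falls. Tma7-ps measured 35.5, 92.00 and 86.3 FPKM in Tsc2 KO and 0.850, 0.691 and 0.645 in DKO, but also 2.85, 91.6 and 82.2 in Tfeb KO and 69.9, 88.5 and 51.3 in control. Gm8210 measured 13.1, 20.6 and 30.5 FPKM in Tsc2 KO, 0.343, 0.139 and 0 in DKO, 0, 25.1 and 16.7 in Tfeb KO and 25.1, 19.8 and 8.24 in control. Gm7993 measured 24.2, 34.3 and 15.8 FPKM in Tsc2 KO, 0.0798, 0.584 and 0.227 in DKO, 34.99, 31.5 and 0.260 in Tfeb KO and 0.253, 0.332 and 0.247 in control. The cause was not tested.

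Fat genes varied between libraries of a group. Ucp1, the uncoupling protein of brown fat, measured 0.0311, 0.800 and 0 FPKM in Tsc2 KO and 3.14, 0.618 and 13.7 in DKO. The adipsin gene Cfd measured 0.110, 99.6 and 0 FPKM in Tsc2 KO and 42.7, 40.98 and 585 in DKO. Ucp1 passed the test between DKO and Tsc2 KO (log2 fold change 4.42, adjusted p = 0.048) although its groups overlapped, and the call was lost without DKO 1 (adjusted p = 0.064), DKO 3 (0.22), Tsc2 KO 1 (0.17) or Tsc2 KO 3 (0.090). It was also lost in DESeq2 (adjusted p = 0.061), with Xist as a covariate (0.077), with the replicate block (0.059) and with the 2 groups fitted alone (0.099). Cfd did not pass (adjusted p = 0.35), though it did without Tsc2 KO 2 (adjusted p = 0.032).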
